A study of Homo sapiens with 6 samples.

Results

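Heat shock proteins and their co-chaperones were examined in RKO cells, an established line of human colorectal carcinoma. The members are the rows of the deposited gene table whose names begin with HSP, DNAJ, CCT or BAG and a digit, STIP1, AHSA or CHORDC. There were 20 such rows among 2885 in the table, of which 16 are protein-coding genes and 4 are pseudogenes. GENCODE 29 lists 213 genes with such names, 97 of them protein-coding. Members were assigned to compartments from general knowledge: 11 are cytosolic, 1 is mitochondrial, 2 belong to the endoplasmic reticulum (ER) and 2 were left unassigned.

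RNA sequencing was carried out on 6 libraries in 2 groups of 3. One group was labelled with a short hairpin RNA against KMT5A (shKMT5A, genotype given as KMT5A knockdown), and the other with a control hairpin (shNC, genotype given as wild type). KMT5A is a methyltransferase known for monomethylation of histone H4. The labels do not say which hairpin sequences were used, whether the cells were 1 clone or a pool, or whether libraries came from separate cultures. The spread between libraries given below may therefore be technical.

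Members were chosen by their names among rows that the authors had selected on this same comparison: in the authors' deposited table the smallest absolute log2 fold change is 1.0002 and the largest adjusted p is 0.0499. The differences of the members between the groups are therefore described here and not tested. Members just inside the selection were DNAJC22, BAG1 and the row named HSPA14, at log2 fold changes of -1.001, -1.02 and 1.03 in the authors' deposited table. Chaperone genes just outside it were not analysed here.

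KMT5A itself had 4015, 3898 and 3297 normalized counts in the libraries labelled shKMT5A, against 1298, 1245 and 1307 in shNC. It was thus 2.91-fold higher under the label of its own hairpin, with no overlap between the groups. A two-sided exact permutation test returned p = 0.1, and no smaller value is possible with 3 libraries in each group. KMT5A too passed the authors' selection on this comparison, and for 99.7% of rows the groups did not overlap. This p therefore adds no evidence of its own. Since KMT5A was higher under the label of its own hairpin, directions are given for the libraries as labelled. None can be read as an effect of lowered KMT5A RNA.

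Libraries held 1891460 to 1980866 reads on the table's rows in the group labelled shKMT5A and 1363382 to 1369655 in shNC, and their total depth is unknown. Of 11 markers of colon epithelium 5 were in the table, summing to between 45692 and 47212 normalized counts in the libraries labelled shKMT5A and between 144310 and 157141 in shNC. Keratin genes made up nearly all of that sum and were lower, whereas MUC2 (10.9 ± 4.72 under the shKMT5A label, 0.973 ± 0.983 in shNC) and CDH17 (4.10 ± 2.12 under the shKMT5A label) were higher (SD, n = 3 each). Of 10 leukocyte markers 4 were in the table, with sums of 114 to 139 normalized counts in the libraries labelled shKMT5A and 489 to 548 in shNC. CORO1A carried that sum, and CD8A went the other way, with 13.2 ± 3.53 under the shKMT5A label and 0.638 ± 0.553 in shNC. The table held 5 of 10 markers of fibroblasts and endothelium, with sums of 94.2 to 118 in the libraries labelled shKMT5A and 147 to 167 in shNC. Of these, 3 were higher (COL3A1, ACTA2 and CDH5) and 2 lower, and LUM, with 0.341 ± 0.591 under the shKMT5A label and 111 ± 13.0 in shNC, turned the sum. Of the defining markers in the table, DCN was at 0 in every library labelled shKMT5A, and CDH5 and CDH17 were at 0 in every shNC library. The part of these shifts in the chaperone values was not tested. All libraries are given as RKO cells, a single line, so the markers do not count leukocytes or fibroblasts of a tissue. In bulk RNA, fewer cells of a type and less RNA per cell cannot be told apart.

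Heat shock proteins are molecular chaperones that bind unfolded polypeptides. In the cytosol, J proteins deliver clients to Hsp70 and stimulate its ATPase, nucleotide exchange factors reset Hsp70, and Hsp90 takes over late-folding clients. Small heat shock proteins hold aggregation-prone chains without using ATP, and chaperonins enclose them in a barrel. Cytosolic chaperone genes are the classical targets of heat shock factor 1 (HSF1), which binds heat shock elements built from inverted repeats of GAA. ER chaperone genes are instead controlled largely by the unfolded protein response, through XBP1, ATF6 and ATF4.

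Promoters of some members are shown first, since many cytosolic chaperone genes are known HSF1 targets. Printed are the 6 lower members that hold the pair GAANNTTC, described below, and DNAJB9, an ER member without an exact match. They were picked after values were seen, so the print is no comparison of lower with higher members. Among those not printed are lower members without a match (HSPH1, BAG1 and HSPE1). Higher ones with a match (the row named HSPA14 and CCT6B) are not printed either. RefSeq promoter windows (GRCh38.p14, 250 bases before to 50 after the start) were at hand for 14 of the 20 members, in 19 windows because HSP90AA1, DNAJB1 and DNAJA4 have several starts. DNAJC1, DNAJC22 and the 4 pseudogenes had no entry. The window of the row named HSPA14 is that of its current symbol, MSANTD7. The sequences below run 5′ to 3′ on the strand of the gene and end at the base before the start, except that of HSPB1, which ends 51 bases before it. Capitals mark exact matches to the heat shock element letters searched: the pair GAANNTTC, the pair TTCNNGAA, and the run of 3 units GAANNTTCNNGAA on either strand. Each run of 3 units contains both pairs. HSP90AA1 is shown for its second window and DNAJB1 and DNAJA4 likewise, the windows with the most matches.
HSP90AA1 promoter, chr14:102087045-102087194, minus strand: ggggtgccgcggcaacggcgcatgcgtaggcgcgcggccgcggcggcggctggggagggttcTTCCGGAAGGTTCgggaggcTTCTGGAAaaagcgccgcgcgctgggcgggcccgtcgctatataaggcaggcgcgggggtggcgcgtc
HSPA8 promoter, chr11:123062137-123062386, minus strand: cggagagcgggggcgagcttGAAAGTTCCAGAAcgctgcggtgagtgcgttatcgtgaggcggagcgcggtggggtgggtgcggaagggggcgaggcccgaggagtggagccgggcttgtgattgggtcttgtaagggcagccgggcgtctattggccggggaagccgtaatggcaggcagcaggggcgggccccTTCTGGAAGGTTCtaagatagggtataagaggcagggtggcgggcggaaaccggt
HSPA1B promoter, chr6:31827588-31827737, plus strand: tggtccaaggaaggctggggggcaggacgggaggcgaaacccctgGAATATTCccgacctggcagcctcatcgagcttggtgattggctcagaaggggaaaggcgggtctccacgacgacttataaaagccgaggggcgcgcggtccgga
HSPB1 promoter, chr7:76302473-76302622, plus strand: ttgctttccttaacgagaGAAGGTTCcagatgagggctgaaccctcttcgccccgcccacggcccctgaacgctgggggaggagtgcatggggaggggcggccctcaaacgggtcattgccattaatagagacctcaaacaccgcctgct
DNAJB1 promoter, chr19:14518398-14518547, minus strand: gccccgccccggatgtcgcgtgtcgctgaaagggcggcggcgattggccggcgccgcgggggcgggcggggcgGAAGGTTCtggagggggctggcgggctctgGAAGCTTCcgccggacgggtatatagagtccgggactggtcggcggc
DNAJA4 promoter, chr15:78264412-78264561, plus strand: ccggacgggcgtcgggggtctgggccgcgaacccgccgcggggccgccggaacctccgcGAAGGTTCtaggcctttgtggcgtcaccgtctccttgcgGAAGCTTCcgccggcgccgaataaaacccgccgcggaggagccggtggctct
DNAJB9 promoter, chr7:108569724-108569873, plus strand: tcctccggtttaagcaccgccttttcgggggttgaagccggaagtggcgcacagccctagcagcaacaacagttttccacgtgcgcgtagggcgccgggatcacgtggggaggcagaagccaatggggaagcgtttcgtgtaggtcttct

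The run of 3 units was found in the promoters of HSP90AA1 and HSPA8. In HSPA8 it was found at 2 places, beginning at positions -230 and -55 from the start, and in HSP90AA1 at position -88. Counted by window, it was in 2 of the 15 windows of lower members and 0 of the 4 of higher ones, against 0.49% of all 35116 RefSeq windows. The pair GAANNTTC was found in the windows of 6 of the 10 lower members with an entry (HSP90AA1, HSPA8, HSPA1B, DNAJB1, DNAJA4 and HSPB1) and in 1 of the 4 higher ones, the row named HSPA14. Counted by window, that is 7 of 15 windows of lower members and 1 of 4 of higher ones, against 6.77% of all windows. The pair TTCNNGAA, held by 7.74% of windows, was also found in HSPB3, which was lower, and CCT6B, which was higher.

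Allowing 1 of the 9 fixed letters to differ, a run of 3 units was found for 6 of the 10 lower members and 0 of the 4 higher ones. Counted by window, that is 7 of 15 and 0 of 4, against 6.24% of all windows. The ER stress element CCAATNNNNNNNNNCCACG, on either strand, was in none of the 19 windows and in 0.0769% of all windows. HSPE1, HSPH1, BAG1, HSPB9 and DNAJB9 had no exact match to any of these letters in their windows. A match is a description of letters, not of a bound site. Members were chosen by chaperone names and only 4 windows belong to higher members, so these counts cannot tie matches to direction. Promoters of chaperone genes outside the table were not counted separately.

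**Figure D1:**
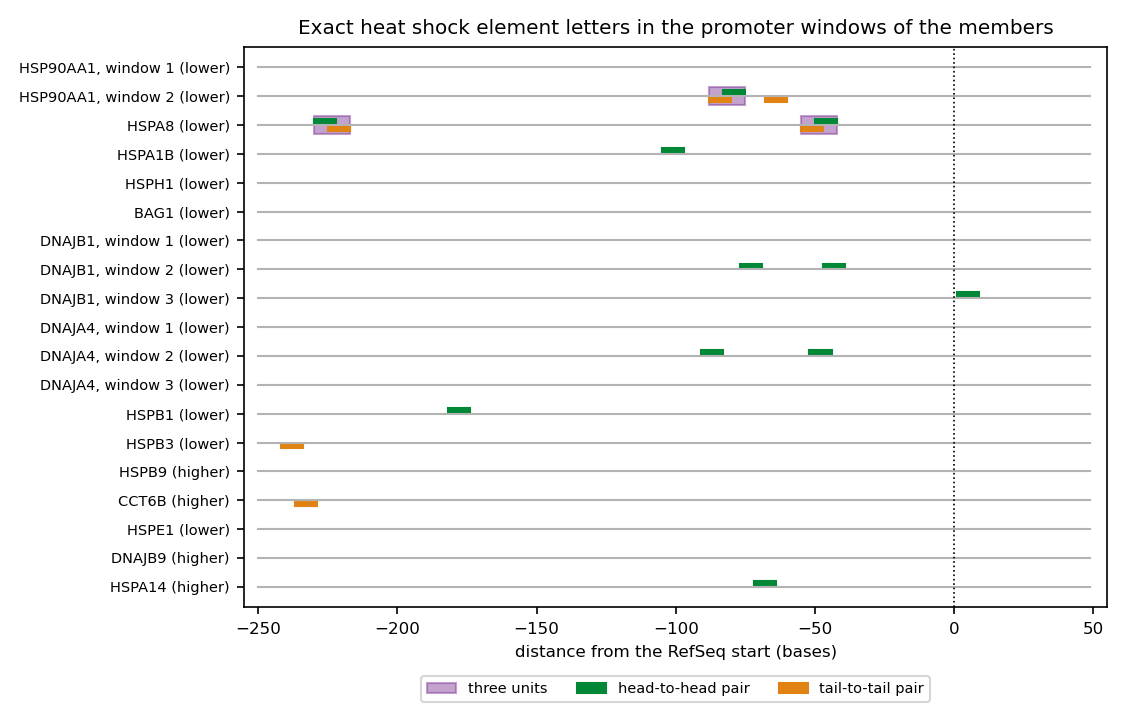
Positions of exact heat shock element letters in the 19 RefSeq promoter windows of 14 members; the x axis is the distance in bases from the start, and colours mark the 3 forms searched. HSP90AA1 and HSPA8 carry the run of 3 units, and 6 of 10 lower members carry at least 1 head-to-head pair (GAANNTTC).

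Of the 11 cytosolic members 9 were lower in the libraries labelled shKMT5A and 2, CCT6B and HSPB9, were higher. The mitochondrial member HSPE1 was lower, and both ER members, DNAJC1 and DNAJB9, were higher. In all, 6 members were higher and 14 lower. The 6 include the row named HSPA14, whose current symbol is MSANTD7. In the table as a whole limma called 57.4% of rows higher, 42.6% lower and 99.9% in either direction (adjusted p below 0.05). The groups did not overlap for any of the 20 members, and for 99.7% of the table they did not overlap either, with 57.2% of rows higher and 42.5% lower. The median log2 fold change was -1.29 over the 20 members, -1.29 over the 11 cytosolic ones and 1.13 over the whole table. Nearly every row of the table differs between the groups because the authors selected the rows on that difference.

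**Figure D2:**
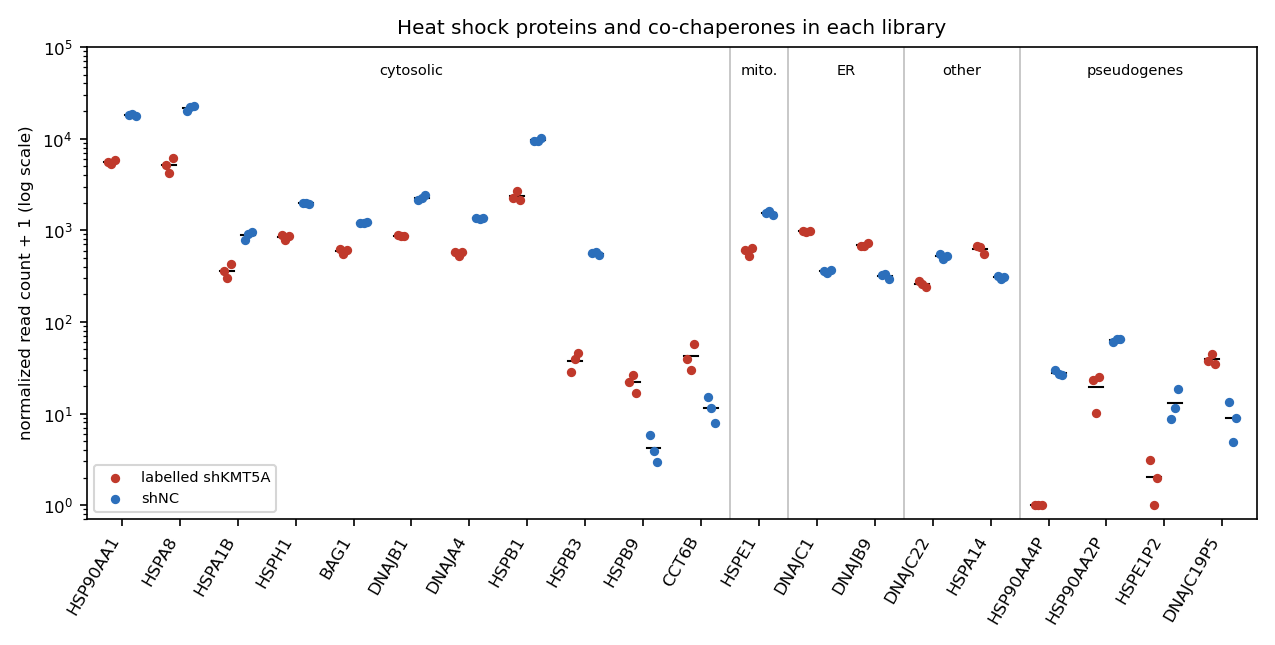
Normalized read counts plus 1 (log axis) of the 20 members in each library, with the libraries labelled shKMT5A left of shNC for each gene; bars are means of 3. The most abundant cytosolic members sit lower in the libraries labelled shKMT5A, DNAJC1 and DNAJB9 sit higher, and HSP90AA4P has no read there.

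The most abundant of the 20 members were among the lower ones. Chaperone genes outside the table were not ranked. HSPA8 encodes Hsc70, the constitutive cytosolic Hsp70. It had 5112, 4247 and 6126 normalized counts in the libraries labelled shKMT5A, against 20019, 22140 and 22930 in shNC. Every library labelled shKMT5A was below every shNC library, a 4.20-fold difference of the means (log2 fold change -2.08 ± 0.108 SE). HSPA8 lies on chromosome 11 at 123057489 to 123063230, minus strand, in GRCh38.

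HSP90AA1 encodes the stress-inducible cytosolic Hsp90 alpha. It had 5538, 5337 and 5799 normalized counts in the libraries labelled shKMT5A and 18128, 18779 and 17746 in shNC. Replicates lay close together, with coefficients of variation of 4.17% in the libraries labelled shKMT5A and 2.87% in shNC. The means differed 3.28-fold, at a log2 fold change of -1.71 ± 0.045 (SE). The gene lies on chromosome 14 at 102080738 to 102139699, minus strand.

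HSPA1B, one of the stress-inducible Hsp70 genes, had 358, 300 and 428 normalized counts in the libraries labelled shKMT5A, against 781, 916 and 953 in shNC. It was 2.44-fold lower. Its value is uncertain, because its transcript is 98.6% identical to that of HSPA1A over 2152 bases, with an exact shared stretch of 1715 bases. Of its exon bases 36.5% are shared with the same-strand transcript AL671762.1. HSPA1A was not analysed here.

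HSPA8 and HSPA1B varied together within the group labelled shKMT5A. Per base of gene length, HSPA8 exceeded HSPA1B 7.42, 7.36 and 7.44 times in the libraries labelled shKMT5A and 13.3, 12.6 and 12.5 times in shNC. The ratio averaged 7.41 ± 0.0402 in the libraries labelled shKMT5A and 12.8 ± 0.461 in shNC (SD, n = 3 each). Within the group labelled shKMT5A the counts of HSPA8 had a coefficient of variation of 18.2% and those of HSPA1B 17.7%. Both were lowest in replicate 2 and highest in replicate 3 there. Gene length, here and below, is the deposited one. Where compared, it equals all annotated exon bases of the gene, not the length of a single transcript. For HSP90AA1 it is 5248 bases, against 3379 in the transcript compared with its copies. Ratios and ranks between genes therefore depend on the annotation. The size of the ratio to HSPA1B is also uncertain because reads of HSPA1B may be shared with HSPA1A and AL671762.1.

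Replicate 2 of the group labelled shKMT5A was the lowest of its group for many members. That was so for 13 of the 19 members whose values differ within the group (68.4%), and for 8 of the 10 lower cytosolic and mitochondrial members. Over the whole table the same library was lowest for 34.2% of rows. For 3 members, HSPB1, HSPB9 and DNAJC19P5, that library was instead the highest of its group. The median log2 fold change of the members was -1.198 without that library.

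Both nucleotide exchange factors in the table were lower. HSPH1 encodes Hsp110, which releases ADP from Hsp70, and had 879, 777 and 867 normalized counts in the libraries labelled shKMT5A against 1990, 1961 and 1932 in shNC (2.33-fold lower). BAG1, which binds the Hsp70 ATPase domain, had 622, 549 and 611 under the shKMT5A label against 1193, 1194 and 1232 in shNC (2.03-fold lower). Neither gene's groups overlapped. Per base of gene length HSPA8 exceeded HSPH1 10.6 ± 1.45 times in the libraries labelled shKMT5A and 19.2 ± 1.60 times in shNC (SD, n = 3 each), so the differences of these partners were unequal.

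The cytosolic J proteins DNAJB1 and DNAJA4 were lower. DNAJB1, the principal partner of stress-induced Hsp70, had 886, 857 and 865 normalized counts in the libraries labelled shKMT5A and 2136, 2252 and 2398 in shNC. The means were 869 ± 14.9 under the shKMT5A label and 2262 ± 132 in shNC (SD, n = 3 each), 2.60-fold apart. DNAJA4, a J protein of the DNAJA class, had 573, 522 and 579 under the shKMT5A label against 1352, 1343 and 1359 in shNC, 2.42-fold lower. DNAJB1 shares 5.75% of its exon bases with TECR on the opposite strand, and the sources used here do not state whether reads were counted by strand.

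Of the 3 small heat shock proteins, HSPB1 and HSPB3 were lower and HSPB9 was higher. HSPB1 is an abundant holdase that also binds actin filaments. It had 2249, 2666 and 2152 normalized counts in the libraries labelled shKMT5A, against 9309, 9376 and 10191 in shNC, which is 4.09-fold lower. Per kilobase of gene length HSPB1 was the highest member in both groups, with 1442 ± 167 normalized counts per kilobase in the libraries labelled shKMT5A and 5891 ± 301 in shNC (SD, n = 3 each).

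HSPB3, a small heat shock protein known from muscle and motor neurons, had the largest ratio among the protein-coding members. It had 27.2, 37.9 and 44.7 normalized counts in the libraries labelled shKMT5A and 562, 575 and 530 in shNC, a 15.2-fold difference (log2 fold change -3.91 ± 0.168 SE). Per kilobase it was the fifteenth of the 20 members in the libraries labelled shKMT5A and the fifth in shNC. HSPB1 exceeded HSPB3 per base of gene length 32.2 ± 8.39 times in the libraries labelled shKMT5A and 8.34 ± 0.777 times in shNC (SD, n = 3 each). The ratio did not overlap between the groups.

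HSPB9, a small heat shock protein known from testis, was scarce in both groups. It had 20.9, 25.6 and 15.9 normalized counts in the libraries labelled shKMT5A and 4.76, 2.89 and 1.97 in shNC. These values rest on 61 reads in the libraries labelled shKMT5A and 10 in shNC. HSPB9 lies inside the gene AC099811.2 on the opposite strand without touching its exons, and counting by strand is not stated. The ratio of summed reads was 6.45, with an exact 95% interval of 3.28 to 14.1 that covers counting error only.

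The chaperonin rows did not move together. HSPE1, the mitochondrial Hsp10 that caps the Hsp60 barrel, had 612, 521 and 634 normalized counts in the libraries labelled shKMT5A and 1545, 1609 and 1466 in shNC (2.61-fold lower). It shares 14.2% of its exon bases with HSPD1, the Hsp60 gene on the opposite strand, and 9.71% with the readthrough HSPE1-MOB4. CCT6B, a testis-type subunit of the cytosolic chaperonin TRiC, had 38.7, 28.7 and 56.6 under the shKMT5A label against 14.3, 10.6 and 6.88 in shNC, at means of 41.3 ± 14.2 under that label and 10.6 ± 3.70 in shNC (SD, n = 3 each). Its transcript is 80.7% identical to that of CCT6A over 1605 aligned bases, with no exact run longer than 29 bases. On the opposite strand CCT6B shares 4.15% of its exon bases with LIG3.

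Both ER members were higher, unlike the cytosolic J proteins. DNAJC1, a J protein of the ER membrane, had 986, 949 and 985 normalized counts in the libraries labelled shKMT5A and 360, 338 and 371 in shNC. Its means of 973 ± 21.1 under the shKMT5A label and 356 ± 16.7 in shNC (SD, n = 3 each) were 2.73-fold apart. DNAJB9, also known as ERdj4 and a target of XBP1, had 674, 665 and 729 under the shKMT5A label against 322, 334 and 294 in shNC, 2.18-fold higher. DNAJB9 shares 6.45% of its exon bases with THAP5 on the opposite strand. Per kilobase DNAJC1 was the fourth of the 20 members in the libraries labelled shKMT5A and the eleventh in shNC.

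The remaining J protein, DNAJC22, a membrane protein, had 279, 258 and 241 normalized counts in the libraries labelled shKMT5A against 550, 483 and 523 in shNC. Its difference of 2.001-fold lies at the edge of the authors' selection. The row named HSPA14 carries an identifier, ENSG00000284024, whose current symbol is MSANTD7. It had 679, 652 and 554 under the shKMT5A label against 316, 296 and 310 in shNC. GENCODE 29 lists HSPA14, an atypical Hsp70, also under a second identifier on the same strand, with which the row shares 9.34% of its exon bases. The row is therefore not reported here as the level of that Hsp70.

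**Figure D3:**
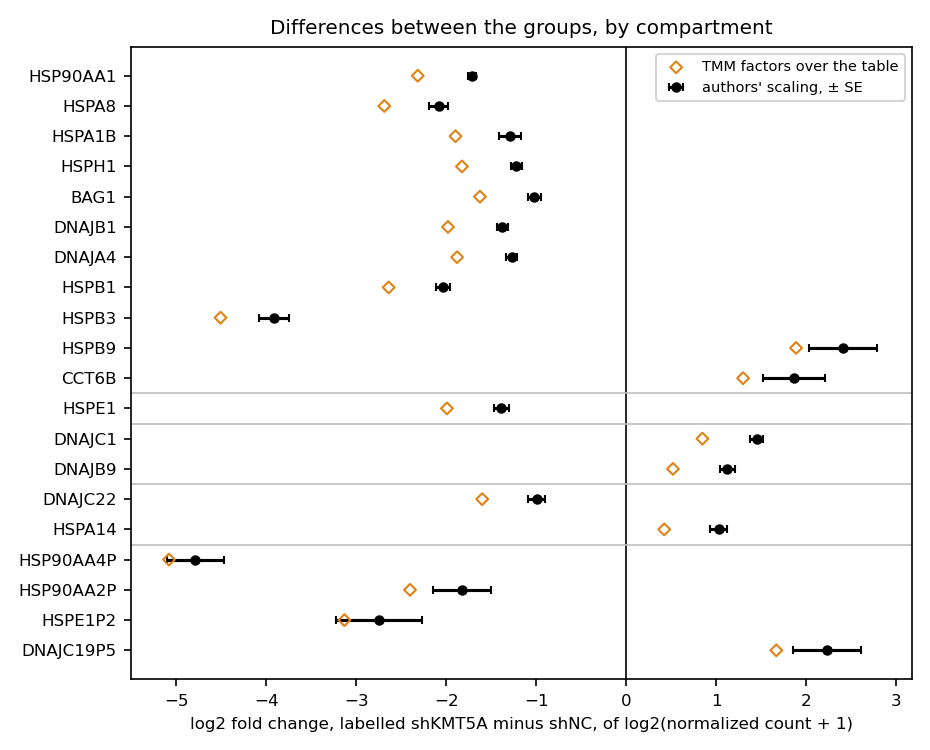
Log2 fold change, libraries labelled shKMT5A minus shNC, of log2(normalized count + 1) for the 20 members in order of compartment (circles, ± SE from limma), with open diamonds for TMM scaling over the table. Cytosolic members other than HSPB9 and CCT6B lie left of 0 under both scalings, and DNAJC1 and DNAJB9 lie right of 0 under both. The TMM factors were computed on rows selected as different, so they do not rest on unchanged genes.

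Summed over the 11 cytosolic members, the libraries labelled shKMT5A held 16304, 15347 and 17546 normalized counts and the shNC libraries 55489, 58549 and 59280. The sum was thus 0.284 of the shNC level. HSPA8, HSP90AA1 and HSPB1 supplied most of it. The sum covers only rows that the authors selected as different, so it is not the total of cytosolic chaperone RNA. Over the 2 ER members the sum went the other way, at 1663 ± 49.8 in the libraries labelled shKMT5A and 673 ± 8.71 in shNC (SD, n = 3 each), a ratio of 2.47. The table's rows together summed to 1.49 times as many normalized counts in the libraries labelled shKMT5A.

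Among the pseudogenes, 3 were lower and DNAJC19P5 was higher. HSP90AA4P, a processed copy of HSP90AA1 on chromosome 4, had no read in any library labelled shKMT5A and 28.6, 26.0 and 25.6 normalized counts in shNC. With the group labelled shKMT5A set to 3 counts in total, about the one-sided 95% limit for 0 reads, it was at least 26.1-fold lower. That bound covers counting error in that group alone and takes the shNC mean as exact. As a share of HSP90AA1 in the same library HSP90AA4P was 0% in all 3 libraries labelled shKMT5A and 0.147% ± 0.00987 in shNC (SD, n = 3).

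HSP90AA2P, another processed copy of HSP90AA1, had 22.0, 9.21 and 23.8 normalized counts in the libraries labelled shKMT5A against 59.99, 63.5 and 64.9 in shNC. As a share of HSP90AA1 it was 0.397%, 0.173% and 0.411% in the libraries labelled shKMT5A, against 0.331%, 0.338% and 0.366% in shNC. The groups' shares overlapped. Its transcript is 97.1% identical to that of HSP90AA1, with an exact run of 148 bases, whereas HSP90AA4P is 91.7% identical with a longest run of 72 bases. Reads of the parent could be counted on such copies, and their part in these values was not tested.

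HSPE1P2, a copy of HSPE1 with 96.8% identity, had 1.03 ± 1.05 normalized counts in the libraries labelled shKMT5A (SD, n = 3), with 0 reads in replicate 2, and 7.62, 10.6 and 17.7 in shNC. With 3 reads under the shKMT5A label and 37 in shNC the ratio was 0.0857, with an exact 95% counting interval of 0.0169 to 0.271. HSPE1P2 lies inside the gene WDR89 on the opposite strand without touching its exons. DNAJC19P5 had 36.6, 44.0 and 33.8 normalized counts in the libraries labelled shKMT5A against 12.4, 3.85 and 7.86 in shNC. It lies inside the gene NFE2L2 on the same strand without touching its exons, and DNAJC19, its parent, was not analysed here.

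**Figure D4:**
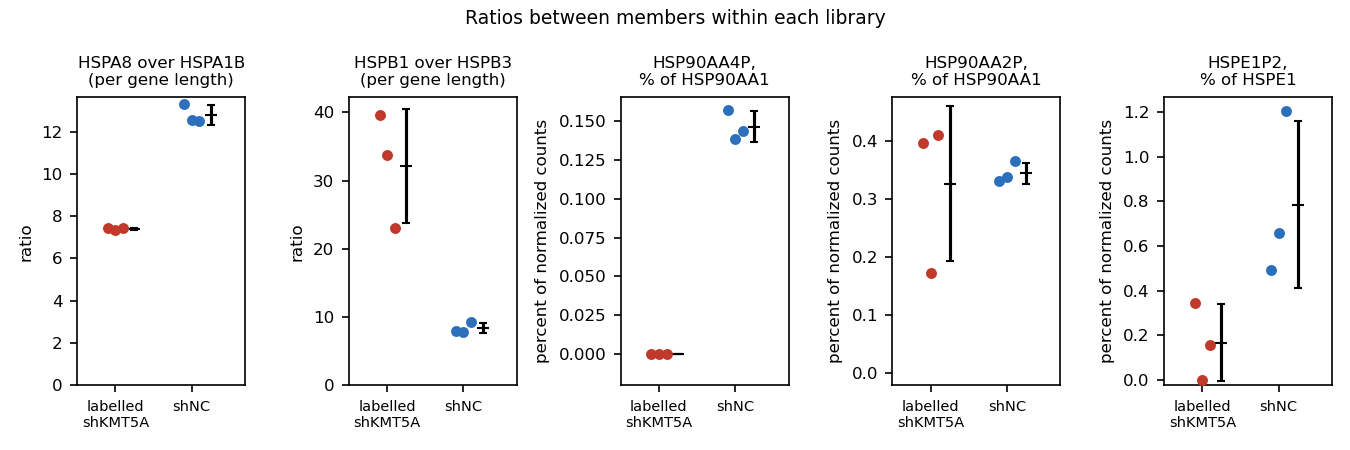
Ratios between members within each library, with the libraries labelled shKMT5A left of shNC; points are libraries and bars the mean ± SD of 3. HSPA8 over HSPA1B lies between 7.36 and 7.44 in the libraries labelled shKMT5A and between 12.5 and 13.3 in shNC, and the share of HSP90AA2P in HSP90AA1 overlaps between the groups. The value of HSPA1B is uncertain, since much of its transcript is identical to that of HSPA1A.

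Genes near the members were compared to see whether position was shared. Within 500 kb of the 20 members the table held 52 neighbour entries. Of these, 32 differed in the same direction as the member and 20 in the opposite one, 9 of them beside HSPA1B. Over the whole table limma called 57.4% of rows higher and 42.6% lower. The neighbours named here were chosen after their values were seen. All 4 rows near HSP90AA4P were lower with it: AF250324.1, LINC01262 and RNU1-51P also had no read in the libraries labelled shKMT5A, and FRG1-DT had 1.35 ± 0.550 normalized counts there against 36.3 ± 7.99 in shNC (SD, n = 3 each). HSPB3 was lower together with SNX18, a membrane-remodelling sorting nexin, which had 632 ± 19.9 under the shKMT5A label against 5238 ± 149 in shNC, and with ARL15, a small GTPase.

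BAG1 and HSPA1B differed from their neighbours. BAG1 starts 158 bases from CHMP5, an ESCRT-III subunit on the opposite strand, which had 1696, 1619 and 1751 normalized counts in the libraries labelled shKMT5A against 756, 647 and 735 in shNC while BAG1 was lower. HSPA1B lies in the MHC region of chromosome 6, where all 9 neighbours in the table were higher, HLA-B and TNF among them. CCT6B was higher together with all 5 of its neighbours, which include the interferon-regulated SLFN5. The share of rows that were higher was 57.4% over the table and varied by chromosome. The higher members DNAJC1 and the row named HSPA14 lie on chromosome 10, where 77.2% of 149 rows were higher, and the higher HSPB9 and CCT6B on chromosome 17, at 67.3% of 159. The lower DNAJB1 lies on chromosome 19, at 21.7% of 258 rows, whereas the lower HSPH1 lies on chromosome 13, at 75% of 64. The other members lie on chromosomes with shares of 51.5% to 68.8%. The part of position in these differences was not tested.

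**Figure D5:**
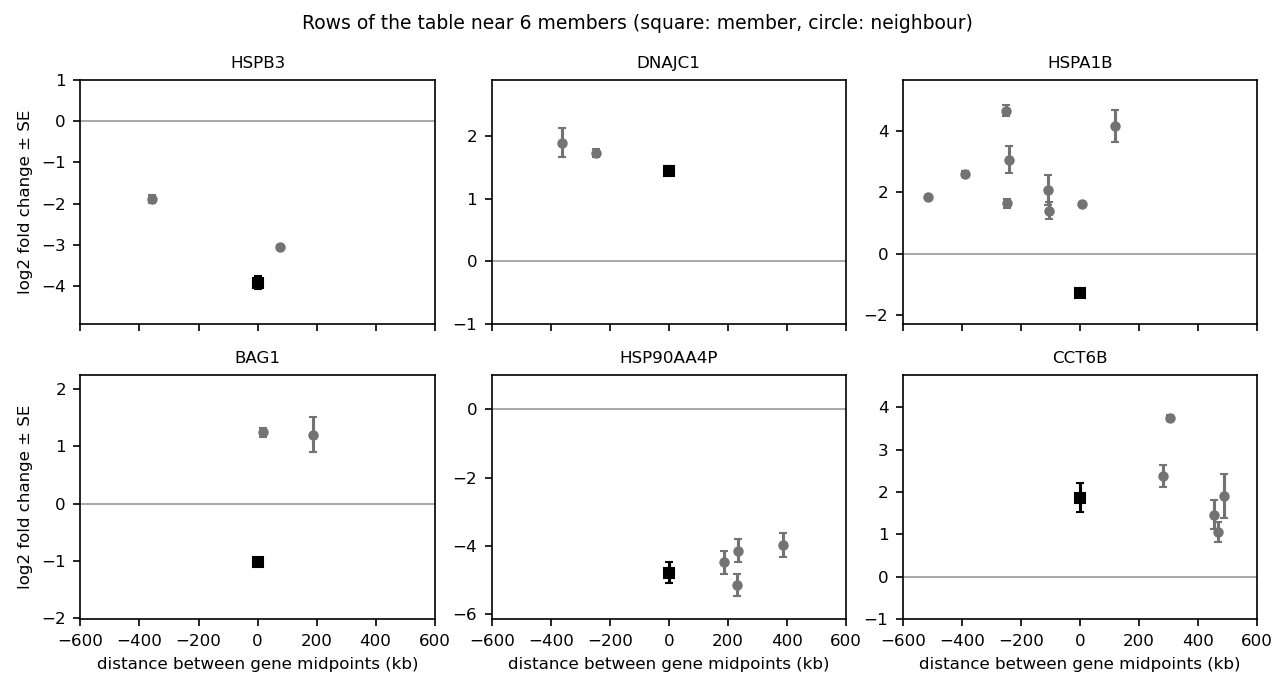
Log2 fold change ± SE (limma) of 6 members (squares) and of the table's other rows within 500 kb (circles), by distance between gene midpoints in kb. HSPB3, DNAJC1, HSP90AA4P and CCT6B share the direction of their neighbours, and HSPA1B and BAG1 do not.

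Genes that work with these chaperones were taken from 7 lists of 180 genes, of which 29 were in the table, 22 higher and 7 lower (limma, against 57.4% and 42.6% of the table). No gene of these lists is a member. The lists overlap, and some genes, FKBP4, TCP1 and SEC63 among them, are counted again under a further list. Of 11 heat shock factors and regulators only FKBP4, an Hsp90-binding immunophilin, was in the table, with 3511 ± 16.3 normalized counts in the libraries labelled shKMT5A and 7089 ± 103 in shNC (SD, n = 3 each). HSF1 was not analysed here. Of 45 Hsp90 and Hsp70 partners 5 were in the table, 3 higher and 2 lower.

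TCP1, a further subunit of TRiC, was among the lower partners, with 4629 ± 187 normalized counts under the shKMT5A label against 10035 ± 68.4 in shNC. The chaperonin-like BBS10 and MKKS, which assemble the BBSome, were higher, with 410 ± 24.2 under the shKMT5A label against 180 ± 12.8 in shNC and 463 ± 8.77 under the shKMT5A label against 206 ± 6.06 in shNC. None of 9 prefoldin genes was in the table. SEC63, the J protein of the ER translocon, was named after its values were seen. It had 1975 ± 106 under the shKMT5A label against 987 ± 37.4 in shNC, the direction of DNAJC1 and DNAJB9 (SD, n = 3 each).

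Other HSF1-responsive genes went both ways: 9 of 27 were in the table, 4 higher and 5 lower. JUN, an AP-1 subunit, had 3740 ± 174 normalized counts in the libraries labelled shKMT5A against 714 ± 62.4 in shNC. PPP1R15A, a stress-induced phosphatase subunit that acts on eIF2 alpha, had 6906 ± 133 under the shKMT5A label against 1489 ± 44.5 in shNC. FOS, the partner of JUN, had 66.7 ± 4.72 under the shKMT5A label against 206 ± 35.9 in shNC, and GADD45B 352 ± 32.9 under the shKMT5A label against 883 ± 30.1 in shNC (SD, n = 3 each).

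Of 56 genes of ER folding and quality control 11 were in the table, 9 higher and 2 lower, at a median log2 fold change of 1.203. The whole table had 57.4% of rows higher and a median of 1.13. SEC63, counted above among the partners, is also among the 9. EDEM1, which hands misfolded glycoproteins to degradation, had 1537 ± 134 normalized counts in the libraries labelled shKMT5A against 411 ± 18.8 in shNC. FKBP14, an ER prolyl isomerase, had 382 ± 12.97 under the shKMT5A label against 114.5 ± 13.8 in shNC. CRELD2 and PDIA2 were lower, at 547 ± 52.5 under the shKMT5A label against 1141 ± 45.02 in shNC and 10.9 ± 4.78 under the shKMT5A label against 43.9 ± 12.8 in shNC (SD, n = 3 each). DNAJC1 and DNAJB9 lay on the side of the 9.

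The table held 2 genes of mitochondrial quality control and 6 of aggregate clearance, all higher, against 57.4% of all rows called higher. These counts are small, and a difference of either list as a set was not tested. Of 18 mitochondrial protein quality control genes 2 were in the table, and both were higher, unlike HSPE1. They were YME1L1, an inner membrane protease with 4355 ± 52.4 under the shKMT5A label against 1764 ± 71.5 in shNC, and PITRM1, a matrix peptidase with 2104 ± 25.3 under the shKMT5A label against 946 ± 8.40 in shNC. All 6 of 30 ubiquitin and aggregate clearance genes in the table were higher. OPTN, an autophagy receptor, had 4775 ± 240 under the shKMT5A label against 736 ± 52.2 in shNC, and PML, the scaffold of nuclear bodies, 2491 ± 200 under the shKMT5A label against 484 ± 18.4 in shNC (SD, n = 3 each). YME1L1, PITRM1 and OPTN lie on chromosome 10, whose rows were mostly higher.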

How the data were processed

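RNA of 6 RKO libraries was sequenced, 3 labelled shKMT5A and 3 labelled shNC. Per the submitters' processing notes, the tools included fastp, CASAVA 1.8, DESeq2 1.20.0, HISAT2 2.0.5 and featureCounts 1.5.0-p3, and the build was GRCh38. The deposited signal values are normalized read counts: in each library 100% of them were whole multiples (within 0.001) of the value of 1 read. Reads recovered in this way from 5 libraries entered the read-based tests. Replicate 3 of shKMT5A, where 1 read is worth nearly 1 normalized count, was left out of those tests by choice, although its values also came out whole. Sums of reads and counting intervals given for single genes use all 6 libraries. Fold changes (log2) and p-values in the deposited table come from the authors, and the table keeps rows past their thresholds. Members, lists and compartments were chosen with earlier results of these data known. The ratios, neighbours, printed promoters and the promoter search with 1 changed letter were chosen after values were seen.

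All rows had a mean of at least 1 normalized count. They were fitted with limma 3.58.1 (trend, robust; R 4.3.3) to log2(value + 1), with shKMT5A minus shNC as the difference. Adjustment (Benjamini-Hochberg) ran over all 2885 rows, with a threshold of 0.05. Fold changes on that scale understate those of low genes. On reads of 5 libraries edgeR 4.0.16 called 1653 rows higher and 1229 lower, and DESeq2 1.42.0 called 1605 and 1207. The limma and edgeR steps were also run on simulated reads in which most genes were unchanged. Nearly all rows of this table differ by selection, so that run does not measure the error of the calls here. Pairs of replicates varied 2.2 to 9.57 times as much as counting noise (variance). All 20 members had the position of their identifier in GENCODE 29. Transcripts were compared with blastn, and promoter letters were searched in RefSeq windows. Every member is named; of each list at most the 2 genes with the largest absolute fold change in each direction are named, unless stated.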

Additional observations from a re-analysis of the deposited data

How the results depend on the processing

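Directions of the 20 members did not change under any of 15 alternatives run, and the authors' selection largely builds that in. With a filter of a mean of at least 10 normalized counts, HSPE1P2 is left out and 13 of 19 members were lower. The median log2 fold change of the members, -1.29, was -1.52 with equal medians and -1.89 with TMM factors over the table, since these scalings moved the median of all rows by -0.24 and -0.60. Both scalings assume that most rows are unchanged, but they were computed on rows selected as different, most of them higher. Their values show sensitivity only and are not better estimates. Under TMM the 6 higher members had log2 fold changes of 0.42 (the row named HSPA14) to 1.89 (HSPB9). Leaving out 1 library gave medians of -1.34 to -1.20. Of 299 values of single members, 40 moved by more than the spread between replicates, 33 of them by these 2 scalings, and 0 reversed. HSP90AA4P, at -4.79, was -8.07 with a pseudocount of 0.1, because it has no read in 1 group. Same-numbered libraries did not deviate together (r from -0.038 to 0.001), and with a replicate block the calls stayed at 1655 higher and 1228 lower rows. The total depth is unknown, and under the shKMT5A label HSPB3 rests on 108 reads in all and CCT6B on 122, with 61 for HSPB9 and at most 112 for any pseudogene.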
